A study of Mus musculus with 4 samples.

Results

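J774 cells, a mouse monocyte-macrophage line, were described here in their solvent control state. The description rests on the array of cells kept for 4 h with DMSO alone. A probe was taken as detected when the scanner software called its signal well above background on that array, and a gene when any of its probes was detected. Of 20143 named genes with a value on this array, 13720 were detected and 6423 were not. The study set this control beside cells kept for the same time with a proteasome inhibitor at 1 μM, which was MG132, epoxomicin or ONX. The last name is used because the treatment label says ONX-0912 and the treatment protocol says ONX 0914. Each of the 4 conditions had 1 array of total RNA from J774.1 cells grown in RPMI medium with fetal bovine serum and antibiotics. All conditions therefore shared the same line, medium and time, and differed in what was added.

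Macrophages engulf particles, digest them in lysosomes and sense microbes through receptors at the surface, in endosomes and in the cytosol. Their identity depends on transcription factors such as PU.1 (encoded by *Spi1*) and on the receptor for colony-stimulating factor 1. They degrade proteins in the proteasome, a barrel of alpha and beta rings capped by regulatory particles. In immune cells, inducible beta subunits can take the place of the constitutive catalytic subunits, which makes the immunoproteasome and changes the peptides offered on MHC class I.

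A signal is the brightness of a spot after the software subtracted background within the array, in the scanner's arbitrary units. Signals are given as deposited, and a level is the log2 signal minus the 75th percentile of the array, which was 1654 on the DMSO array. The percentile of a gene is its place among all named genes on the array, with 100 for the brightest. It ranks signals and not amounts of RNA, because probes differ in how strongly they bind. The negative control spots had a median signal of 3.72, and 4 of 153 of them (2.61%) were called well above background. The call had no fixed cutoff in signal. The dimmest gene detected through the probe that gave its level was *Arhgef28* at 14.7, and the brightest gene not detected was *Map3k6* at 21.8. Between these signals, calls differed from gene to gene, so percentiles from 29.9 to 33.7 held detected and undetected genes side by side.

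**Figure D1:**
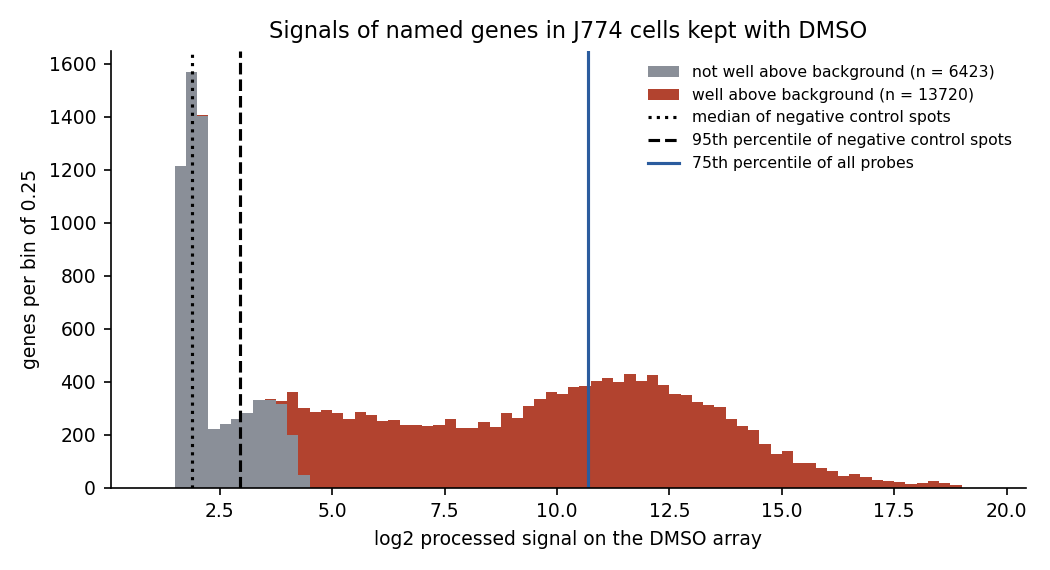
Processed signal of every named gene on the DMSO array (x axis, log2 scale) against the number of genes per bin (y axis), stacked by the detection call, with lines at the median and 95th percentile of the negative control spots and at the 75th percentile of all probes. The 6423 undetected genes gather around the negative control median of 3.72, and the 13720 detected genes spread from 14.7 to 574902, apart from 12 genes detected only through another probe than the one plotted.

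Precision within the array was high, and precision between cultures could not be measured. Repeat spots of a probe differed with a median SD of 0.062 on the log2 scale (395 probes with at least 8 usable spots), or 0.400 percentile points. With 1 array per condition, no spread between cultures was available, no test was made, and the number of arrays limits every statement. A larger spread lay between probes of the same gene. Of 5370 genes with several probes, 3355 had every probe detected, 963 had none, and 1052 (19.6%) had both kinds. Where all probes were detected, the brightest and the dimmest were a median of 13.5 percentile points apart. Because RNA came from a bulk culture, many cells with little of a transcript and few cells with much of it cannot be told apart.

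Detection differed with the kind of gene, and over all genes it was 68.1%. Of the 51 proteasome genes listed, 49 were detected, with a median percentile of 94.3. The housekeeping lists gave 95 of 105 genes and a median percentile of 92.9. The macrophage lists gave 92 of 105 and 78.8, and the immune lists 183 of 231 and 55.9. Markers of other cell types gave 60 of 132 and a median percentile of 28.3, below the middle of the array.

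Gene families taken by symbol spread even further. Ribosomal protein genes were detected in 81 of 84 cases and genes of the respiratory chain and ATP synthase in 85 of 88. The ribosomal exceptions were *Rpl10l*, *Rps4l* and *Rpl39l*, and the respiratory ones *Cox8c*, *Cox8b* and *Cox7b2*, with signals between 3.18 and 16.2. Several of these, such as *Rpl10l* and *Rpl39l*, are known from testis, and *Cox8b* from muscle. Zinc finger genes of the Zfp series were detected in 308 of 359 cases (85.8%), against 68.1% of all genes. Families with known use in sensory or surface epithelia were detected less often than all genes. Olfactory receptors were detected in 182 of 1069 cases (17.0%), vomeronasal receptors in 46 of 252 (18.3%), beta-defensins in 9 of 43 (20.9%), and keratins and keratin-associated proteins in 45 of 103 (43.7%). Of the olfactory receptors, 104 (9.73%) were detected on all 4 arrays, against 63.3% of all genes. *Olfr1466*, the brightest of them, had a signal of 7188 and a percentile of 85.2. Hox genes, which pattern the body axis, were detected in 22 of 41 cases, and *Hoxa7* reached a percentile of 93.7. These family members were named after their values were seen.

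**Figure D2:**
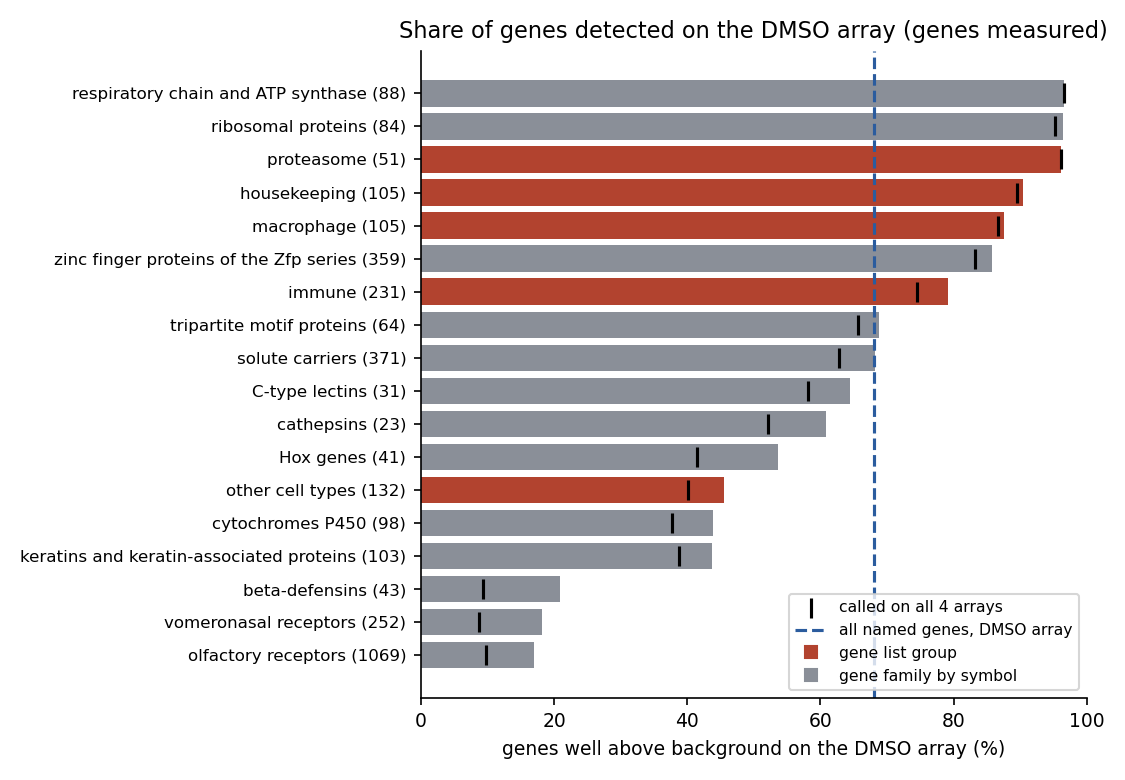
Share of genes detected on the DMSO array (x axis, percent, bars from 0) for the 5 groups of gene lists (red) and for gene families taken by symbol with at least 20 measured genes (grey), with the number measured in parentheses, ticks for the share detected on all 4 arrays and a dashed line at 68.1% for all named genes. Proteasome, ribosomal and respiratory genes lie above 96%, and sensory receptors below 20%.

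Promoter sequence differed between detected and undetected genes. The 300 bases around the annotated start (250 before it and 50 after it, RefSeq, build GRCm38.p6) were at hand for 15653 of 19096 protein-coding genes (82.0%). A promoter was called CpG-rich when its GC content was at least 50% and its CpG count at least 0.6 of that expected from its base composition. Of 7741 genes with such a promoter, 86.4% were detected, against 51.7% of 7912 other genes. The share of CpG-rich promoters was 19.7% in the dimmest decile of genes, 74.98% in the ninth and 73.8% in the brightest. No test was made, since genes are not replicates.

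**Figure D3:**
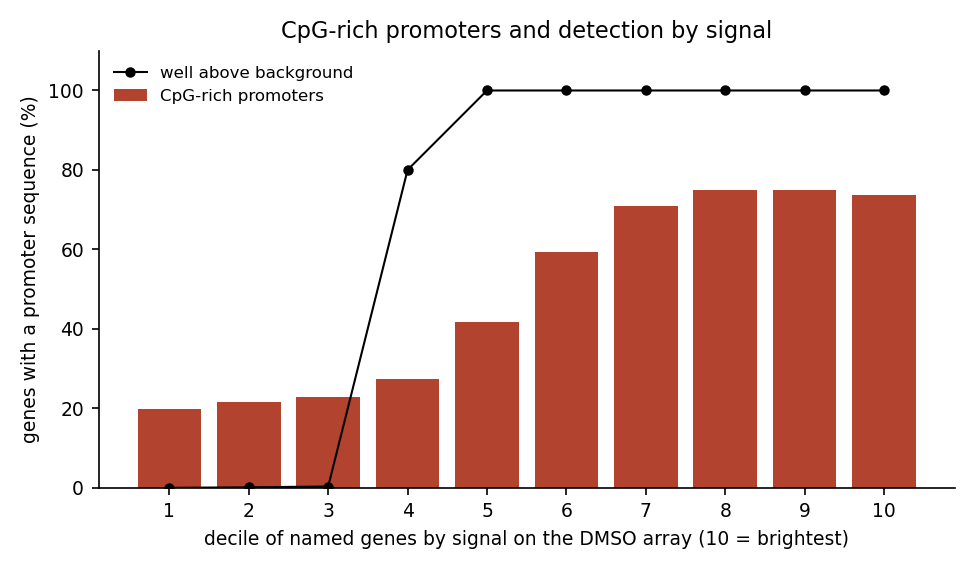
Share of genes with a CpG-rich promoter (bars, y axis in percent) and share of genes detected (line) for each decile of all named genes by signal on the DMSO array (x axis, 10 = brightest), among genes whose promoter sequence was at hand. CpG-rich promoters go from 19.7% in the dimmest decile to between 71.0% and 74.98% in the 4 brightest, while detection passes from 0.333% in the third decile to 80.01% in the next.

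The promoters below show the range of CpG content in 4 genes, each as the 250 bases before the start, 5′ to 3′ on the strand of the gene, with every CpG in capitals. *Psmb5*, a catalytic beta subunit of the constitutive proteasome, and *Psmb9*, an inducible subunit, were both bright here. *Itgam* encodes the macrophage integrin CD11b, and *Alb*, the gene of liver albumin, stands for a gene that was not detected. They lie at chr14:54617996-54618245 (minus strand), chr17:34187331-34187580 (minus strand), chr7:128062390-128062639 (plus strand) and chr5:90460620-90460869 (plus strand) of GRCm38.p6.
Psmb5: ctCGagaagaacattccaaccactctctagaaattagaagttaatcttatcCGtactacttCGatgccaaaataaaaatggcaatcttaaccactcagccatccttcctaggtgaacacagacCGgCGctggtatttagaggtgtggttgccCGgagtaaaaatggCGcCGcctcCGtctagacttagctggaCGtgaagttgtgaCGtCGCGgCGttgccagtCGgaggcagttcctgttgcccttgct
Psmb9: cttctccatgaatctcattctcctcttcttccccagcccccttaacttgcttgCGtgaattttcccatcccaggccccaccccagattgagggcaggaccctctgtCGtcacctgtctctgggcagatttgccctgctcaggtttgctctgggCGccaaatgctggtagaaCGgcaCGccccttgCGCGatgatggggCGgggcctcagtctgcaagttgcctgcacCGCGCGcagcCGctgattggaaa
Itgam: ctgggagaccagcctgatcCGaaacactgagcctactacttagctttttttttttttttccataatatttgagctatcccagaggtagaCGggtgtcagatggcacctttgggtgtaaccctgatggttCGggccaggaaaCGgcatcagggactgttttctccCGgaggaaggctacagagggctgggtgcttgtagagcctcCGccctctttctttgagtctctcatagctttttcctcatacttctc
Alb: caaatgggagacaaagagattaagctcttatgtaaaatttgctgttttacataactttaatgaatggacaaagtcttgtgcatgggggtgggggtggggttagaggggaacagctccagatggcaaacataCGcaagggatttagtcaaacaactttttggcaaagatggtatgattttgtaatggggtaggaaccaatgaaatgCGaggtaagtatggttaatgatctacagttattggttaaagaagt
*Psmb5*, with 15 CpG in these bases, had a signal of 129247 and a percentile of 99.2. *Psmb9* held 12 and had a signal of 22695 at percentile 94.6, and its CpG ratio of 0.5996 fell just short of the limit. *Itgam* held 6 and had a signal of 20753 at percentile 94.0. *Alb* held 2 and had a signal of 3.96, near the negative controls. The 4 genes were chosen with their values known and show the range only. *Psmb9* and *Itgam* were bright without a CpG-rich promoter.

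The lists did not all follow this split. CpG-rich promoters made up 67.4% of 43 proteasome genes and 71.8% of 85 housekeeping genes with a sequence, but 20.5% of 185 immune genes, close to the 21.6% of undetected genes, although the immune lists were detected in 79.2% of cases. Among inducible and thymic beta subunits 0 of 4 were CpG-rich. Interferon-stimulated genes, of which 30 of 31 were detected, had 1 of 27, while interferon receptors and their signaling genes had 12 of 14. Fewer than 80% of the macrophage lists, of the markers of other cell types and of the constitutive beta subunits had a sequence, so this check is void for them and no share is given.

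Short motifs were searched on both strands of the 300 bases. TATAAA, the core of the TATA box, occurred in 12.7% of all promoters, in 9.05% of those of detected genes and in 20.6% of those of undetected genes. Within CpG-rich promoters these shares were 4.71% and 5.04%, and within other promoters 16.1% and 24.9%. GGGCGG, the core bound by SP1, occurred in 49.7% of all promoters, in 59.1% of the detected and in 29.0% of the undetected. It is itself made of CpG-rich letters, and within CpG-rich promoters the shares were 77.1% and 76.9%, but within other promoters they were 29.7% and 15.9%. GAGGAAG, a core bound by PU.1, occurred in 12.9% of all promoters, including that of *Itgam*, in 13.2% of the detected and in 12.3% of the undetected. Within CpG-rich promoters it occurred in 11.5% and 11.6%, and within other promoters in 15.95% and 12.4%. Other motifs were searched as well and are not reported here. A match is only a stretch of letters and no evidence of binding.

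Markers of macrophages were detected throughout. Of the 10 markers listed, *Cd68* was not analysed here, and the other 9 were detected on the DMSO array and on all inhibitor arrays. Over all genes, 68.1% were detected with DMSO and 63.3% on all 4 arrays. *Csf1r*, the receptor for colony-stimulating factor 1, had signals of 210824, 165950, 193542 and 201426 on the DMSO, MG132, epoxomicin and ONX arrays, so it stayed among the brightest genes throughout. *Cd14*, a coreceptor for lipopolysaccharide, had a signal of 109365 (percentile 98.97), and the adaptor *Tyrobp* 76534 (percentile 98.5). *Fcgr1*, the high-affinity Fc receptor, stood at percentile 86.6, *Csf2rb* at 89.7 and the lysozyme gene *Lyz2* at 78.0. *Spi1* itself stood at percentile 63.8 with a signal of 1081. *Adgre1*, which encodes the F4/80 antigen, was the lowest of these markers, at percentile 55.7. The dimmest of the 3 probes of *Csf1r* lay at percentile 78.0 and that of *Itgam* at 47.0.

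Transcription factors of the lineage were detected in 15 of 18 cases (83.3%), against 68.1% of all genes. The brightest was *Irf8*, a factor of monocyte development, at percentile 95.9, followed by *Cebpb* at 92.4 and *Irf5* at 91.7. *Cebpa*, which acts early in the myeloid lineage, was barely detected with a signal of 17.5. *Spic* and *Gata6*, factors of red pulp and peritoneal macrophages, had signals of 12.5 and 10.9 and were not detected. *Tfec* was not detected either, at 3.75.

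Receptors and surface proteins of the phagocyte were nearly all detected, on an array where 68.1% of all genes were. The 4 receptors for colony-stimulating factors were detected, between *Csf2ra* at percentile 82.0 and *Csf1r* at 99.5, with the granulocyte factor receptor *Csf3r* at 99.1. All 13 adhesion and surface genes were detected, from *Itgax* (CD11c) at percentile 45.1 to *Cd14*. Phagocytic receptors and their adaptors gave 21 of 25 (84%). *Fcer1g*, the Fc receptor gamma chain, had a signal of 191910, and the lectins *Clec4e* and *Clec4d* and the lipid receptor *Trem2* lay between percentiles 97.3 and 97.4. The undetected genes of this list were the mannose receptor *Mrc1*, the complement receptor *Vsig4*, *Lyve1* and the haptoglobin-hemoglobin receptor *Cd163*, with signals of 14.6, 6.04, 3.53 and 3.19. These are markers of resident or alternatively activated macrophages, and *Timd4* and *Folr2*, which also mark resident cells, stood at percentiles 48.7 and 31.9. Other genes used as markers of such cells were bright, so these markers did not all go the same way. *Mgl2* had a signal of 100429 (percentile 98.87), and *C1qa*, *C1qb* and *C1qc* lay at 98.86, 97.90 and 98.97. *Mgl2* and the *C1q* genes were named after their values were seen.

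Lysosomal and secreted proteins included some of the brightest genes on the array. The protease genes *Ctsb* and *Ctsa* had signals of 241900 and 173560, and *Lamp1*, a lysosomal membrane protein, 144247. The dimmer of the 2 probes of *Ctsa* lay at percentile 55.3. *Ctsz*, *Ctsd*, *Ctss* and *Ctsl* all lay above percentile 97. In the cathepsin family as a whole, 14 of 23 genes were detected (60.9%), against 68.1% of all genes. *Ctsk*, the cathepsin of osteoclasts, was faint at percentile 38.6, and its osteoclast partner *Acp5* was not detected. *Spp1*, which encodes osteopontin, had a signal of 134243. *Retnla* and *Gpnmb* were not detected, at 3.67 and 3.33.

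Genes of oxidant, nitric oxide and iron handling were detected in 15 of 18 cases (83.3%), against 68.1% of all genes. Their median percentile was 75.3. The ferritin genes *Ftl1* and *Fth1* lay at percentiles 99.9 and 99.7. Subunits of the NADPH oxidase included *Ncf4* at 98.8 and *Cyba* at 98.5, and *Cybb* at 66.6. *Nos2*, the inducible nitric oxide synthase, stood at percentile 61.3 with a signal of 849. *Arg1* and *Arg2*, which use the same substrate, had signals of 3.23 and 3.75, and *Alox15* had 3.13. None of these 3 genes was called on any array.

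**Figure D4:**
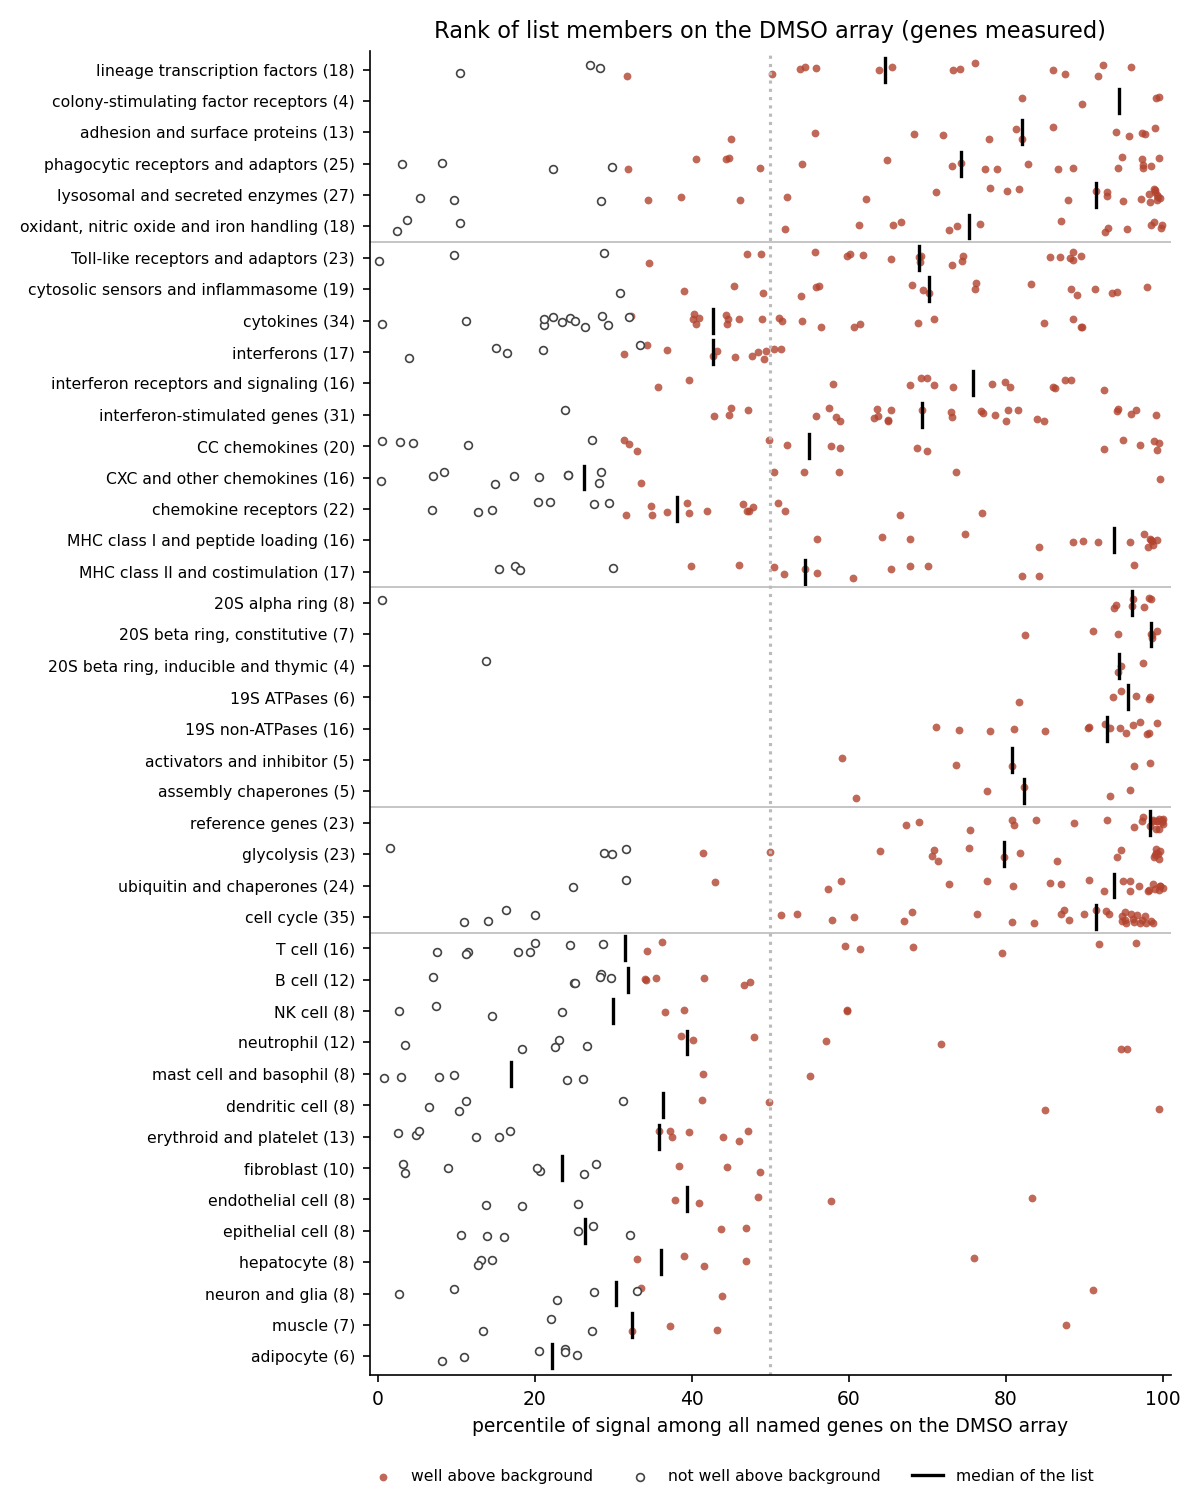
Percentile of signal on the DMSO array (x axis) for every measured member of the 42 lists (y axis, number measured in parentheses), with filled points for detected genes, open points for undetected genes, a bar at each list's median and lines between the 5 groups. Proteasome and reference genes crowd the right edge, the cytokine and chemokine lists span the whole axis, and the markers of other cell types lie mostly left of the middle.

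Most genes of innate sensing were detected. Toll-like receptors and their adaptors were detected in 20 of 23 cases (87.0%), against 68.1% of all genes. *Tlr13* (bacterial ribosomal RNA) stood at percentile 89.5, *Tlr7* (single-stranded RNA) at 88.6, *Tlr2* at 88.2 and *Tlr4* at 73.1. *Tlr3* and *Tlr5* were faint at 48.8 and 47.0, and *Tlr8*, *Tlr11* and *Tlr12* were not detected. The chaperone *Unc93b1*, which carries endosomal receptors, and the adaptor *Myd88* stood at 88.5 and 86.9. Of the cytosolic sensors and inflammasome genes, 18 of 19 were detected (94.7%). *Nlrp1a* had a percentile of 97.9, *Casp1* of 94.2, *Sting1* of 93.5 and *Cgas* of 91.3, while *Nlrp3* stood at 53.9. The dimmest probes of *Nlrp1a* and *Cgas* lay at percentiles 54.7 and 55.0, so the order of these genes depends on the probe.

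Cytokine genes were detected in 22 of 34 cases (64.7%), near the 68.1% of all genes, with a median percentile of 42.7. *Tnf* had signals of 11606, 4717, 4561 and 8844 on the same 4 arrays in that order, and was the brightest of the list at baseline. The membrane ligands *Tnfsf9* and *Ltb* followed, at percentiles 89.5 and 88.5, and then *Tgfb1* at 84.9. *Il1b* and *Il6* were present at low signals of 236 and 84.4. *Il1a*, *Il10*, *Il12a* and *Il23a*, which activated macrophages produce, had signals between 2.97 and 17.8 and were not detected, and neither were the lymphocyte cytokines *Il2*, *Il4*, *Il5*, *Il13*, *Il17a* and *Il21*.

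Interferon receptors and their signaling genes had a median percentile of 75.8, and interferon genes 42.7. All 16 receptor and signaling genes were detected, with *Irf3*, the factor behind early interferon transcription, at percentile 92.5, *Ifnar2* at 88.3, *Ifnar1* at 69.95 and *Ifngr1* at 78.3. Interferon genes themselves lay low, although 12 of 17 were called (70.6%), near the 68.1% of all genes. The brightest was *Ifna1*, with a signal of 229, and *Ifnb1* had 71.3. Only 9 of the 17 were called on all 4 arrays (52.9%), against 63.3% of all genes. *Ifnb1* had signals of 15.1 with MG132, 84.1 with epoxomicin and 8.08 with ONX. Interferon alpha genes are near-identical copies, and their probes may share targets. *Ifng*, the gene of interferon-γ, was not detected at 4.10.

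Interferon-stimulated genes were detected in 30 of 31 cases (96.8%) before any inhibitor, against 68.1% of all genes. Their median percentile was 69.4. *Ifitm3*, which blocks viral entry, had a signal of 119056, and *Oas1a*, *Ifi27*, *Bst2* and *Ifitm2* lay between percentiles 94.2 and 96.6. *Isg15*, *Ifit3* and *Ifit1* stood at 78.6, 58.4 and 57.4. *Ifit1bl1* alone was not called. Its signal was 7.49, at percentile 23.9, and the dimmest detected member was *Ifit3b* at 42.9.

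Chemokines showed a contrast between their families. Of the CC chemokines 15 of 20 were detected (75%), against 68.1% of all genes. On all 4 arrays 12 of the 20 were detected (60%), against 63.3% of all genes. Of the 20, 6 lay above percentile 90, namely *Ccl2*, *Ccl4*, *Ccl3*, *Ccl12*, *Ccl7* and *Ccl9*. *Ccl2*, which attracts monocytes, had a signal of 203783. *Ccl22*, *Ccl1*, *Ccl20* and *Ccl11* had signals of at most 3.84. Of the CXC and other chemokines 6 of 16 were detected (37.5%), with a median percentile of 26.2. *Pf4*, platelet factor 4, was by far the brightest, at 99.6 with a signal of 216358. The neutrophil attractants *Cxcl1*, *Cxcl3* and *Cxcl5* were not detected, with signals between 2.97 and 4.09, while *Cxcl2* had 652. Of the ligands of CXCR3, *Cxcl10* had a signal of 2622 (percentile 73.7), *Cxcl9* was not detected at 7.89, and *Cxcl11* was not analysed here. The receptor gene *Cxcr3* was detected in the same cells at percentile 66.5. Chemokine receptors were detected in 15 of 22 cases (68.2%), near the 68.1% of all genes, with *Ccr2* and *Ccr1* at 51.8 and 39.4.

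Antigen presentation differed between the MHC classes. All 16 genes of MHC class I and peptide loading were detected, with a median percentile of 93.7. *B2m*, the light chain, had a signal of 131654, and *H2-D1* and *H2-K1*, the classical heavy chains, lay at 98.6 and 98.4. The peptide transporter subunits *Tap2* and *Tap1* stood at 89.8 and 67.8. Of MHC class II and costimulation 13 of 17 genes were detected (76.5%), against 68.1% of all genes. The invariant chain *Cd74* was bright at 96.3 and *Cd86* at 84.2, but the class II chains *H2-Aa* and *H2-Ab1* had signals of 4.28 and 14.7 and were not detected. Neither of the 2 probes of *H2-Ab1* was called. *H2-Eb1* had a signal of 203, and *Ciita*, the master regulator of class II genes, stood at percentile 39.9.

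Proteasome genes had the highest median percentile of the 5 groups, 94.3 against 92.9 for housekeeping genes, but when only detected genes were ranked the order turned, with 91.9 against 92.4. In the alpha ring 7 of 8 genes were detected (87.5%), against 68.1% of all genes. They ran from *Psma4* at percentile 93.8 to *Psma7* at 98.5. The exception was *Psma8*, a testis form, with a signal of 2.97. All 7 constitutive beta genes were detected, and their median percentile was 98.4. *Psmb5*, whose product has the chymotrypsin-like site, had a signal of 129247 in the control, and 119609, 130436 and 140623 where MG132, epoxomicin or ONX was present. *Psmb6*, with the caspase-like site, and *Psmb7*, with the trypsin-like site, stood at percentiles 98.6 and 91.1. *Psmb2* was the lowest, at 82.4.

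The inducible subunits were already bright without any inhibitor or added cytokine. *Psmb10* (β2i) had a signal of 48941 at percentile 97.5, *Psmb9* (β1i) 22695 at 94.6 and *Psmb8* (β5i) 21411 at 94.3. Each therefore lay between *Psmb2* and *Psmb5* in rank. *Psmb11*, the subunit of thymic epithelium, was not detected at 4.00. The activator subunits *Psme1* and *Psme2*, which go with the immunoproteasome, stood at 96.3 and 98.3, above *Psme3* at 73.7 and *Psme4* at 59.2. Because these are different probes, their signals do not give the ratio of constitutive to inducible subunits.

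The regulatory particle and the assembly factors were detected in full, against 68.1% of all genes. The 6 ATPases lay between *Psmc6* at percentile 81.7 and *Psmc1* at 98.4. The 16 other subunits lay between *Psmd10* at 71.1 and *Sem1* at 99.2, with the ubiquitin receptors *Psmd4* and *Adrm1* at 97.97 and 93.2. Of the assembly chaperones, *Pomp* stood at 95.8 and *Psmg2* at 60.9. All 49 detected proteasome genes were also detected on each inhibitor array, and none differed from DMSO by 2-fold or more there, where 7.13% of 13994 genes were higher and 3.60% lower with MG132, 8.31% and 4.44% of 14051 with epoxomicin, and 3.23% and 1.39% of 13982 with ONX. The differences of the 49 genes ran from -0.57 (*Psmg2*) to 0.85 (*Adrm1*) with MG132, from -0.63 (*Pomp*) to 0.86 (*Psmd12*) with epoxomicin and from -0.27 (*Psmg2*) to 0.79 (*Psmc6*) with ONX on the log2 scale. Their medians were 0.20, 0.10 and 0.32, and those of all genes compared -0.01, -0.04 and 0.00.

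**Figure D5:**
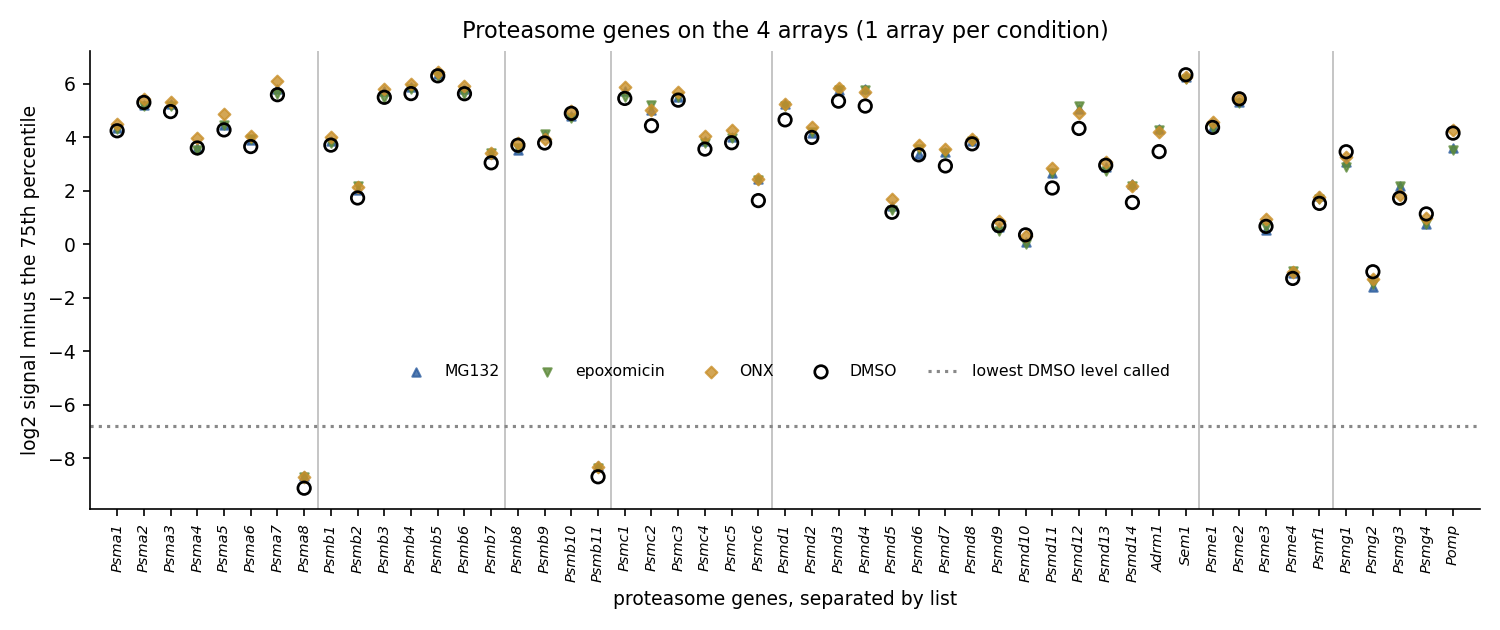
Level of the 51 proteasome genes (x axis, separated by list) on the DMSO array (open circles) and the inhibitor arrays (filled symbols), as log2 signal minus the 75th percentile of the array (y axis), 1 array per condition. Apart from *Psma8* and *Psmb11* below the lowest level called (dotted line), all genes lie above -2, and the 4 arrays differ by less than 2-fold from DMSO at each detected gene.

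Housekeeping genes gave the frame for these ranks. All 23 reference genes measured were detected, against 68.1% of all genes. They ran from *Tbp*, the TATA-binding protein, at percentile 67.3 to *Actb* at 99.99. *Gapdh* had signals of 442091 in the control and 404538, 407832 and 412153 under MG132, epoxomicin and ONX. *Tbp* and *Ywhaz*, often used for normalization, lay below percentile 76. Glycolysis genes were detected in 19 of 23 cases (82.6%). *Gapdhs* and *Ldhc*, forms known from testis, and *Pklr*, known from liver and red cells, were not detected. *Ldha* stood at percentile 99.6 and *Ldhb* at 41.4. Ubiquitin genes and chaperones were detected in 22 of 24 cases (91.7%), with *Rps27a*, *Hspa8* and *Ubb* above 99. The dimmest of the 3 probes of *Rps27a* lay at percentile 40.8. The inducible heat-shock gene *Hspa1a* was not detected at 8.52, and *Hspa1l* was not detected at 17.3.

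Genes of cell division were bright. Cell cycle genes were detected in 31 of 35 cases (88.6%), against 68.1% of all genes. Their median percentile was 91.5. The replication genes *Mcm6* and *Pcna* stood at 98.7 and 98.5, *Mki67* at 97.9 and the cyclin *Ccnd1* at 97.1. *Myc* was at 60.6. *Cdkn2a* and *Cdkn2b*, neighbouring genes that encode inhibitors of the cell cycle, had signals of 4.02 and 4.19. Both had 2 probes, and neither probe was called for either gene. *Mycn* and *Mycl* were not detected.

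Markers of other cell types were detected in 60 of 132 cases (45.5%), against 68.1% of all genes. Adipocyte genes were detected in 0 of 6 cases, with signals of at most 9.05. Mast cell and basophil genes gave 2 of 8, epithelial genes 2 of 8 and fibroblast genes 3 of 10. Endothelial and hepatocyte genes gave 5 of 8 each, muscle genes 4 of 7, erythroid and platelet genes 7 of 13, NK and dendritic cell genes 4 of 8 each, and neuron and glia genes 3 of 8. The medians of these lists lay between percentiles 16.9 and 39.4. Among B cell genes, 6 of 12 were called, none above percentile 47.4, and *Ms4a1* and *Pax5* were not detected. T cell genes gave 8 of 16. *Cd5* stood at percentile 96.6, *Cd28* at 91.8, *Cd4* at 79.5, *Lck* at 68.2 and *Cd3e* at 61.4, while *Cd3d*, *Cd3g*, *Cd247* and *Cd8a* had signals between 3.82 and 12.8 and were not detected. Granulocyte genes gave 7 of 12, with *Lcn2* at 95.4, *Cebpe* at 94.7 and *Elane* at 71.8, and with *Mpo*, *Ngp* and *S100a9* undetected.

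Several of these exceptions rested on a single probe of the gene. *Siglech*, a marker of plasmacytoid dendritic cells, had a signal of 177625, but its other probe lay at percentile 34.0. The other probes of *Cd4*, *Kdr* and *Apoa2* lay at 35.9, 33.8 and 6.94. *Snap25*, a synaptic gene, at percentile 91.1 and *Tnnt2*, a cardiac troponin, at 87.6 had 1 probe each. Whether these signals come from the named transcripts was not tested.

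The same holds for the top of the array. The 25 genes with the highest signals included *Actb*, *Gapdh* and *Ppia* from the lists, 4 ribosomal protein genes, 3 histone H2A genes and the tubulin gene *Tuba1b*. The brightest of all was *F10*, coagulation factor X, with a signal of 574902, whose other probe lay at percentile 13.0. Of 18 genes in this set with several probes, 10 had a probe below percentile 70, among them *F10*, *Slc10a1*, *Elk1* and *Kctd14*, and 8 had every probe above 90. All 25 lay above percentile 99 on the inhibitor arrays as well.

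Set against the inhibitor arrays, the DMSO profile was largely shared. Of the 13720 genes detected with DMSO, 12743 (92.9%) were detected on all inhibitor arrays. Across 12728 genes whose probe was detected on all 4 arrays, the correlation of levels with DMSO was 0.975 for MG132, 0.970 for epoxomicin and 0.990 for ONX (Pearson's r across genes, which are not replicates, on arrays of 1 slide). The MG132, epoxomicin and ONX arrays detected 66.1%, 66.5% and 66.0% of all genes. With MG132, 7.13% of all genes compared were at least 2-fold higher and 3.60% lower. The shares were 8.31% and 4.44% with epoxomicin, and 3.23% and 1.39% with ONX. Of the macrophage lists, 13 genes were higher and 3 lower of 93 with MG132. These counts were 14 and 6 of 93 with epoxomicin, and 3 and 2 of 92 with ONX. Of 189 immune genes compared, 65 were higher and 15 lower with MG132. With epoxomicin 69 and 16 of 189 were, and with ONX 44 and 7 of 189. *Cx3cr1*, the fractalkine receptor, was the macrophage gene with the lowest difference on each inhibitor array, at -2.56, -2.62 and -1.72 with MG132, epoxomicin and ONX. *Ptgs2*, which makes prostaglandins, had the highest, at 3.70, 3.71 and 2.13. The numbers of higher and lower genes with MG132 were 998 and 504, but 740 and 904 without scaling between arrays, 840 and 694 with a shift to the median, and 471 and 2525 with normexp background correction. Each comparison shares the same DMSO array.

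Other genes crossed the detection limit. Of the genes detected with DMSO, 405 were detected on none of the inhibitor arrays, 287 on 1 and 285 on 2 of them. Of those undetected with DMSO, 5740 (89.4%) were detected on no inhibitor array, 492 on 1 and 146 on 2. There were 45 genes undetected with DMSO but detected on every inhibitor array. Ranked by the smallest of their levels on the inhibitor arrays, the first were *Cxcl9*, *Serpina3f*, *Il2ra*, *Aqp9* and *Speer6-ps1*. *Cxcl9*, which encodes a ligand of CXCR3, had a signal of 7.89 in the control, and of 3294, 7176 and 1849 under MG132, epoxomicin and ONX, at least 255-fold, 480-fold and 129-fold higher. *Il2ra*, an interleukin-2 receptor chain, had 20.7 in the control and 325, 700 and 176 under the inhibitors, at least 17.9-fold, 33.2-fold and 8.69-fold higher. Folds are of levels, scaled to the 75th percentile of each array, and so differ from ratios of the signals given. These bounds take the lowest signal well above background on the DMSO array, or the gene's own signal if higher.

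The 405 genes detected with DMSO alone compare with 123 to 201 on each of the other arrays alone. Their median signal was 22.7, and none lay above percentile 49.7. The brightest were *Rprml* at 182, *Olfr606* at 174, *Frk* at 150, *Crb2* at 139 and *Gpr174* at 131, each of which had signals between 3.66 and 9.71 on the inhibitor arrays. *Rprml* was at least 8.99-fold lower with MG132, 9.12-fold with epoxomicin and 9.21-fold with ONX. Single spots called with DMSO alone numbered 1058, against 285 to 436 for the other arrays, and occurred in each of 32 blocks of the array surface, at 0.998% to 4.74% of the spots of a block. The lowest signal called was also lower on the DMSO array, 14.7 against 17.8 to 20.3. The part of the scanner call in these genes was not tested, and the condition and the array cannot be told apart.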

How the data were processed

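RNA of J774.1 cells was hybridized to single-color (Cy3) mouse arrays on 1 slide. The scanner software was Feature Extraction 10.7.1.1. In the files that the authors deposited, each spot has detection calls and a processed intensity, from which background was subtracted within the array, with no scaling between arrays. They also deposited a table of log2 values per probe, made with other software, which served as an alternative. Although the Methods name a human design, the design in the file headers is a mouse one.

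Control spots and spots marked as outliers (194 on the DMSO array) were left out, log2 intensities were averaged over the spots of a probe, and the 75th percentile of the array was subtracted. A probe was called when at least 0.5 of its spots carried the call. Of 39429 probes, 26581 (67.4%) were named through their transcript accession and RefSeq (GRCm38.p6), which gave 20144 genes, of which 1 had no value on the DMSO array. The probe with the highest mean over the 4 arrays gave a gene its level. Genes were compared between arrays when called on either, and counted from 2-fold up. A signal not well above background was replaced by a bound, the higher of its own value and the lowest signal well above background on its array.

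The 42 lists held 644 entries and 624 measured genes, with repeats counted once. These lists, the families, the motifs and the genes named were chosen with earlier results of these data known. The text names list members, the 25 brightest genes and genes that the study discusses. It also names the 5 genes undetected with DMSO alone whose smallest level over the inhibitor arrays was highest. The 5 brightest genes detected with DMSO alone are named as well. The alternatives were other detection calls, other choices of probe, normexp background correction (offset 50), other scalings, the authors' table and a 4-fold threshold. The calculations were tested on simulated data. Python 3.11.15 (numpy 2.4.6, pandas 2.3.3, scipy 1.17.1, matplotlib 3.10.9) and R 4.3.3 (limma 3.58.1) were used. List genes without a named probe were not analysed here: *Clec7a*, *Nlrp6*, *Il12b*, *Tnfsf13*, *Ifnl2*, *Ifna6*, *Ifna9*, *Ifna15*, *Mx1*, *Mx2*, *Ddx60*, *Ccl21a*, *Cxcl11*, *H2-L*, *Polr2a*, *Hspa1b*, *Ly6g*, *Tpsab1* and *Cd68*. Some members of the lists are counted but not reported by name.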

Additional observations from a re-analysis of the deposited data

Results flagged for a closer look

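Probes that received no gene symbol were outside the lists and ranks given above. On the DMSO array, 6898 of 12845 such probes (53.7%) were well above background, against 2.61% of the negative control spots and 67.2% of the 26579 probes with a symbol.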

How the results depend on the processing

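The number of detected genes stayed within 1.5 times of 13720 under every other call tried, from 12402 (above the 99th percentile of the negative controls) to 16307 (the software's call of a positive and significant signal). Detection in the 5 groups of lists did so as well, except that markers of other cell types gave 93 instead of 60 with the positive and significant call. Over single lists, 395 such counts stayed within 1.5 times and 25 did not. Median percentiles moved by more than the spread between spots under several settings. With the mean over a gene's probes they were 80.8 for the macrophage, 57.0 for the immune and 95.5 for the proteasome lists. With the dimmest probe of each gene, a setting chosen after seeing the data, the macrophage, immune, proteasome and housekeeping lists and the other cell types had 80.04, 56.9, 95.6, 90.6 and 29.4. When only detected genes were ranked, a smaller set by construction, the same medians were 77.0, 49.2, 91.9, 92.4 and 19.6, which put housekeeping above proteasome. Normexp gave 56.6 for the immune lists, 91.9 for housekeeping and 31.2 for other cell types.

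Counts of genes at least 2-fold from DMSO depended more on the processing. With MG132, 904 genes were lower without scaling between arrays. Normexp gave 471 higher and 2525 lower genes with MG132, 569 and 3028 with epoxomicin, and 192 and 2707 with ONX. Fitted without outlier spots, a setting chosen after seeing the data, it gave 602 and 284, 696 and 379, and 214 and 74. At 4-fold the counts were 271 and 48, 336 and 60, and 114 and 20. With ONX, 358 genes were lower in the authors' table, and 289 were higher and 102 lower among genes detected on all 4 arrays. The cause was not tested.

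No paired analysis was possible because each condition had 1 array. For the same reason no array was left out, and no statement here separates the DMSO condition from its array.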
